A study of Mus musculus with 6 samples.

Results

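Of the 55487 genes in the files, 8 encode the cell-surface receptors described here: the chemokine receptors Ccr1, Ccr2 and Cxcr4, the chemerin receptors Cmklr1 and Ccrl2, the platelet-activating factor (PAF) receptor Ptafr and the formyl peptide receptors Fpr1 and Fpr2. They were taken by gene symbol and selected on their measured counts in Cre+ against Cre- libraries, that is, with this result known. Their values in that comparison are therefore given as a description, without a test. RNA-seq was done on 6 libraries of cultured primary microglia, 3 labelled Cre- and 3 labelled Cre+. The labels give cortex as the source and, per the study's methods, the cultures came from mouse pups aged P1 to P3 of the CAG::CreERT2; Nr1d1 fl/fl line, so both groups carried loxP sites in Nr1d1, which encodes the circadian repressor REV-ERBα, and the groups differed in the Cre transgene. Microglia were collected as the floating cells of mixed glial cultures, which had been kept in medium with GM-CSF, a growth factor of myeloid cells. The CAG promoter is active in nearly all cell types, so it limits recombination to no cell type. The cells of all 6 libraries received 4-hydroxytamoxifen (4-OHT, the ligand that lets CreERT2 enter the nucleus) at 1.5 μM. Treatment lasted 2 days by the labels and a shorter time by the methods. The labels number the replicates and do not say whether each is a separate pup or culture, so a p-value measures the spread between these libraries, which may be partly technical.

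The receptors belong to the G-protein coupled receptor superfamily and sit on myeloid cells, where most of them signal through inhibitory G proteins to direct movement towards a gradient of ligand. Chemokine receptors bind small secreted proteins, formyl peptide receptors bind peptides from bacteria and mitochondria as well as annexin A1, and the PAF receptor binds a phospholipid that is made and degraded by enzymes of the same cells. In the brain, these receptors are best known for guiding microglia and infiltrating leukocytes to sites of injury or infection.

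Library totals ran from 87545868 to 110909129 counts on genes. Nr1d1 was measured at 2.35, 1.20 and 1.64 CPM (counts scaled to library size, TMM-normalized) in the Cre- replicates and at 1.00, 0.945 and 1.08 CPM in the Cre+ replicates. The groups did not overlap and differed by -0.77 ± 0.25 (standard error, SE) on the log2 scale, but this did not pass edgeR's quasi-likelihood test over all genes (Benjamini-Hochberg adjusted p = 0.094). Without Cre- replicate 2, it was -0.98 with an adjusted p of 0.041. Counts over the whole gene include exons outside the floxed part, and Nr1d1 shares exonic sequence with Thra on the opposite strand, while the strand setting of the counting is not given in the sources used here. Of the 10 microglia markers read, Csf1r (426 to 487 CPM) was the most abundant, whereas P2ry12, Sall1, Siglech and Gpr34, which mark microglia in the intact brain, were below the expression filter. None of the 10 was at 0, and their summed level was 597 to 659 CPM in Cre- and 621 to 650 CPM in Cre+ libraries, most of it Csf1r. Of the 6 tested, Itgam was higher in Cre+ (0.18 ± 0.05, adjusted p = 0.046) and Olfml3 lower (-0.29 ± 0.08, adjusted p = 0.049). The Itgam call was lost without any 1 library, and the Olfml3 call without any but Cre+ replicate 3. Siglech and Gpr34 were lower in Cre+ without overlap and were not tested. Sall1, also not tested, was higher in Cre+ without overlap (0.335 to 0.598 CPM in Cre- and 0.634 to 0.903 CPM in Cre+).

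All 8 receptor genes passed the filter of more than 1 CPM in at least 4 libraries, although Ccr2 and Fpr2 did so narrowly. FPKM values (counts scaled to library size and gene length), which allow genes of different length to be compared, placed Ccr1 first with a mean of 71.8 ± 1.40 (SD, n = 6) and Ptafr second with 51.0 ± 13.4. Ccrl2 (20.5 ± 1.72 FPKM) and Fpr1 (20.1 ± 2.72 FPKM) followed with close means over the 6 libraries, but their order differed by group. Fpr1 was the higher in each Cre- library (22.0 to 23.4 against 19.2 to 20.3 FPKM) and Ccrl2 in each Cre+ library (19.3 to 23.8 against 16.6 to 18.8 FPKM). Cxcr4 had a mean of 9.74 ± 2.10 FPKM. Fpr2 (1.06 ± 0.226 FPKM) and Cmklr1 (0.759 ± 0.102 FPKM) had ranges that overlapped across the 6 libraries, although Fpr2 was the higher of the pair in each library. Ccr2, the monocyte receptor for Ccl2, was lowest at 0.208 ± 0.0315 FPKM. Thus, the receptor levels spanned from the 94.6th percentile of the 11429 genes tested for Ccr1 to the 1.76th percentile for Ccr2. Because each group had its own level of Ptafr, Cxcr4, Fpr1 and Fpr2, the SD over all 6 libraries is wider for them than within a group. Among the 42 chemoattractant receptor genes examined, 2 had a higher mean FPKM than Ccr1, namely the anaphylatoxin receptors C3ar1 (158) and C5ar1 (123).

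**Figure D1:**
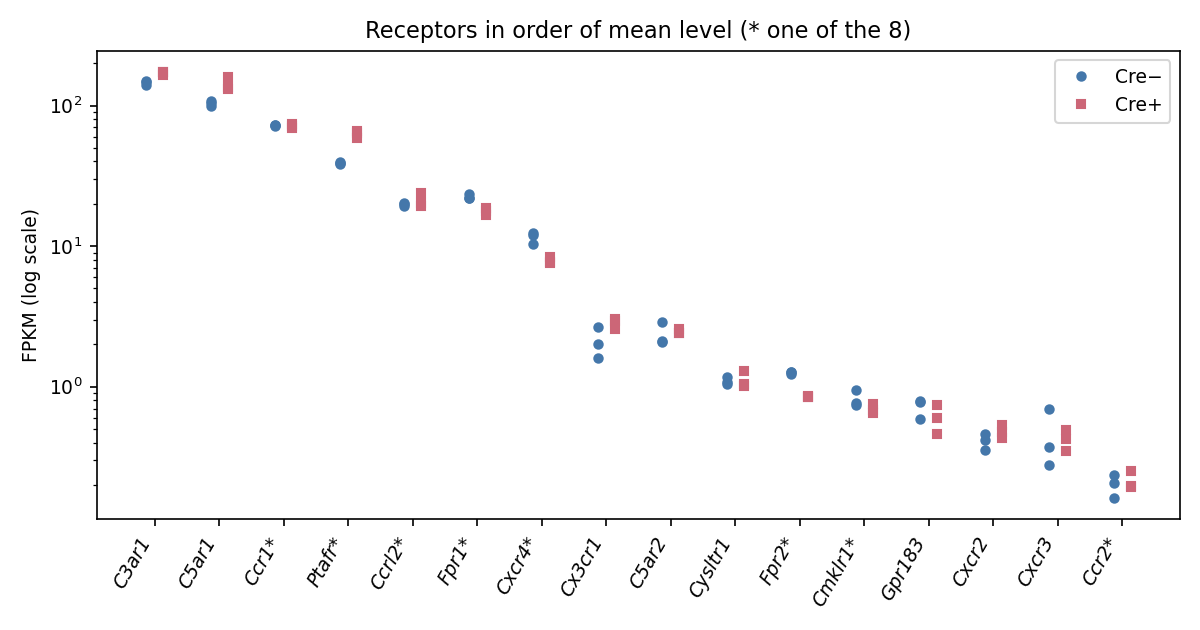
FPKM (log scale) of the 16 chemoattractant receptor genes from the most abundant down to Ccr2, in order of the mean over 6 libraries, with 1 point per library (circles, Cre-; squares, Cre+) and asterisks on the 8 receptors described. Ccr1 and Ptafr follow C3ar1 and C5ar1, and Ccr2 lies at 0.208 FPKM at the low end.

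Between the groups, Ptafr was higher in Cre+ than in Cre- cultures, and Cxcr4 and Fpr1 were lower. These 3 of the 8 were among the genes at an adjusted p of 0.05 or less in the fit over all genes, which held 5.07% of all genes tested (2.50% higher and 2.56% lower in Cre+). Since the 8 were selected on these same counts, this describes the selection and is no test of the receptors. Without Cre- replicate 2 or without Cre+ replicate 2, these were 2, without Fpr1. In addition, Fpr2 was lower in Cre+ without overlap between the groups but was not among them. In all, 4 of the 8 receptors had groups that did not overlap, against 24.0% of all genes tested: 1 was higher (12.3% of all genes) and 3 were lower (11.7%). The median log2 fold change of the 8 was -0.14, beside 0.0023 for all genes tested. Nothing is read from these shares or this median. In bulk RNA, fewer cells of a type and less RNA per cell cannot be told apart for any of these genes.

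**Figure D2:**
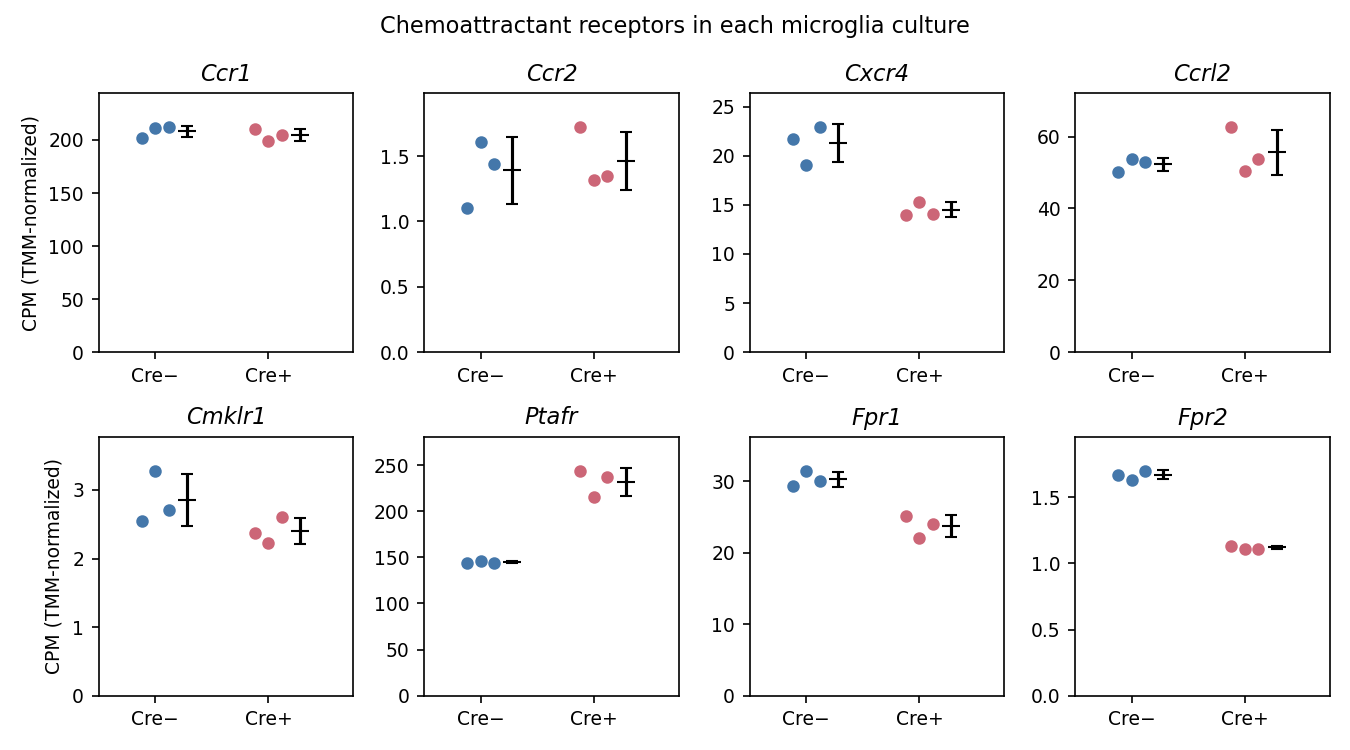
TMM-normalized CPM of each of the 8 receptor genes in 3 Cre- (blue) and 3 Cre+ (red) libraries, with the mean and SD beside the points and a linear axis from 0. Cre+ points lie above all Cre- points for Ptafr and below them for Cxcr4, Fpr1 and Fpr2, and the groups overlap for Ccr1, Ccr2, Ccrl2 and Cmklr1.

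The promoters of the 4 genes whose groups did not overlap are shown because REV-ERBα, the protein encoded by the floxed gene, is known to repress genes from a short response element in DNA. RefSeq (GRCm38.p6) gave a window for 8 of 8 receptors, and the 250 bases before the start site are printed 5′ to 3′ on the strand of the gene, with matches to the searched motifs in capitals.
Ptafr promoter, chr4:132563817-132564066, plus strand: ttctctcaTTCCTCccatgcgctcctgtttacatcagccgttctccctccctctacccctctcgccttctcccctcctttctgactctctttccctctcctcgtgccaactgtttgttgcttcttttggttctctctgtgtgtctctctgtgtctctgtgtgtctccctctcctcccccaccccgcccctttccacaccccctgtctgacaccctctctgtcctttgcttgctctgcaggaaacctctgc
Cxcr4 promoter, chr1:128592300-128592549, minus strand: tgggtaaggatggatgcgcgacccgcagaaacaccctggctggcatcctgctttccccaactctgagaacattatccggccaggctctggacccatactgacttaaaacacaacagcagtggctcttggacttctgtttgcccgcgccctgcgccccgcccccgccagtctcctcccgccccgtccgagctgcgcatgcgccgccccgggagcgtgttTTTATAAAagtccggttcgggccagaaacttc
Fpr1 promoter, chr17:17883940-17884189, minus strand: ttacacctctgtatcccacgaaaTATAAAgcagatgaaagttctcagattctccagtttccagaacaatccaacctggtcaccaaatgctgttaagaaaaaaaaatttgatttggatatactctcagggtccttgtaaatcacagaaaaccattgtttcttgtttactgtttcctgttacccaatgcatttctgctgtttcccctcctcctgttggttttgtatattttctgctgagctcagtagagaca
Fpr2 promoter, chr17:17887574-17887823, plus strand: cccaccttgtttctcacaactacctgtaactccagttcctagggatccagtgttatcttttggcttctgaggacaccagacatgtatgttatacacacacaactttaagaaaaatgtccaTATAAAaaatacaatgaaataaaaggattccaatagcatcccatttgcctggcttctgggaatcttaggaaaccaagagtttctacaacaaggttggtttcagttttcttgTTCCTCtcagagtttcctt

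Both strands were searched for the core of the REV-ERB and ROR response element (TAGGTCA or TGGGTCA), the AGGTCA element within it, the E-box CACGTG, the TATA box TATAAA, the PU.1 core GAGGAA, an interferon-stimulated response element and an NF-kB site. Neither the response element core nor AGGTCA, which lies within the first of the core's spellings, was present in the first window of any of the 8 receptors, while 5.38% and 14.0% of 32851 RefSeq windows of the same length held them. TATAAA, found in 12.4% of windows, began at position -30 from the start site in Cxcr4, where a second match on the other strand overlapped it, at -227 in Fpr1 and at -130 in Fpr2. GAGGAA, found in 23.3% of windows, was present in Ptafr, Ccr1, Cmklr1 and Fpr2, at -242 in Ptafr and -19 in Fpr2. The E-box, found in 6.02% of windows, was present in Cmklr1. The interferon element (2.98% of windows) and the NF-kB site (0.356%) were in none of the first windows of the 8. A match is a description of letters, and the absence of a match says only that the letters are not in this window.

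Among the chemokine receptors, Ccr1 (ENSMUSG00000025804, chr9:123962124-123968692 on GRCm38) binds Ccl3, Ccl5, Ccl6 and Ccl9. It was measured at 202, 211 and 212 CPM in the Cre- replicates and at 210, 199 and 205 CPM in the Cre+ replicates. The groups overlapped, and the log2 fold change was -0.03 ± 0.04 (SE). The coefficient of variation within a group was 2.47% and 2.77%, and the ratio of the group means, 0.983, lay within it. Under 2 other filters on low counts the log2 fold change had the opposite sign (0.02 and 0.05).

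Ccr2 (ENSMUSG00000049103, chr9:124101950-124113557) was detected with 96, 149 and 129 counts in the Cre- and 188, 123 and 136 counts in the Cre+ replicates. These correspond to 1.10, 1.61 and 1.44 CPM and to 1.72, 1.32 and 1.35 CPM. The groups overlapped, with a log2 fold change of 0.08 ± 0.22 (SE) that turned negative without Cre- replicate 1 (-0.07) or without Cre+ replicate 1 (-0.06). With a standard error of 0.22, a small difference in Ccr2 could not be seen. Among neighbouring genes of the chromosome 9 receptor cluster, Cxcr6, Xcr1, Ccr1l1 and Ccr3 had at most 49 counts in any library and were not tested. Over the aligned part of their longest transcripts, Ccr1 and Ccr1l1 were 77.5% identical (1036 bases), but no other gene held 100 bases at 95% identity to Ccr1 or Ccr2.

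Cxcr4 (ENSMUSG00000045382, chr1:128588199-128592293), the receptor for Cxcl12 that retains leukocytes in their niches, was measured at 21.7, 19.1 and 22.9 CPM in the Cre- replicates. In the Cre+ replicates, it was at 14.0, 15.3 and 14.1 CPM. All Cre+ values were below the lowest Cre- value. The mean went from 21.3 ± 1.92 to 14.5 ± 0.748 CPM (SD, n = 3 each), a ratio of 0.681 and a log2 fold change of -0.55 ± 0.09 (SE). In 15 alternative analyses, its log2 fold change ran from -0.62 to -0.48.

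Cmklr1 (ENSMUSG00000042190, chr5:113612354-113650426), which signals in response to chemerin, was measured at 2.55, 3.28 and 2.71 CPM in the Cre- and at 2.37, 2.23 and 2.60 CPM in the Cre+ replicates. The groups overlapped in 1 library, since Cre+ replicate 3 lay above Cre- replicate 1, and the log2 fold change was -0.24 ± 0.18 (SE). Ccrl2 (ENSMUSG00000043953, chr9:111054486-111057519), which binds chemerin without signalling itself, was measured at 50.2, 53.7 and 52.9 CPM in the Cre- and at 62.6, 50.4 and 53.8 CPM in the Cre+ replicates. Cre+ replicate 1 stood above the rest and the other 2 Cre+ libraries lay within or next to the Cre- range. The log2 fold change of 0.09 ± 0.07 (SE) became -0.004 without Cre+ replicate 1. The non-signalling Ccrl2 exceeded the signalling Cmklr1 by 21.5- to 34.6-fold in FPKM. Chemerin itself, encoded by Rarres2, had at most 2 counts in any library.

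Ptafr (ENSMUSG00000056529, chr4:132564067-132582683), the receptor for PAF, was measured at 144, 146 and 144 CPM in the Cre- replicates. In the Cre+ replicates, it was at 244, 215 and 237 CPM. All Cre+ libraries lay well above the Cre- libraries, which differed from each other no more than counting error allows (coefficient of variation of 0.770%, against 0.879% from counting). The mean went from 145 ± 1.11 to 232 ± 15.2 CPM (SD, n = 3 each), a ratio of 1.60 and a log2 fold change of 0.68 ± 0.05 (SE). In 15 alternative analyses, the log2 fold change ran from 0.64 to 0.76. A stretch of at least 100 bases at 95% identity or more to the longest Ptafr transcript was found in transcripts of 64 other genes. How reads from such stretches were assigned is not given in the sources used here.

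Fpr1 (ENSMUSG00000045551, chr17:17876471-17883940), the high-affinity receptor for formylated peptides, was measured at 29.3, 31.5 and 30.1 CPM in the Cre- and at 25.2, 22.1 and 24.0 CPM in the Cre+ replicates. The groups did not overlap. The mean went from 30.3 ± 1.09 to 23.8 ± 1.53 CPM (SD, n = 3 each), a ratio of 0.785 and a log2 fold change of -0.35 ± 0.07 (SE). In 15 alternative analyses, the log2 fold change ran from -0.39 to -0.27, with -0.32 without Cre- replicate 2 and -0.30 without Cre+ replicate 2.

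Fpr2 (ENSMUSG00000052270, chr17:17887824-17893952), which binds annexin A1, serum amyloid A and other peptides, was counted 145, 151 and 152 times in the Cre- and 124, 103 and 112 times in the Cre+ replicates. These counts correspond to 1.67, 1.63 and 1.70 CPM and to 1.13, 1.11 and 1.11 CPM. The groups lay apart, and the mean went from 1.67 ± 0.0323 to 1.12 ± 0.0133 CPM (SD, n = 3 each). The log2 fold change was -0.58 ± 0.20 (SE), and ran from -0.59 to -0.50 in 15 alternative analyses. The replicates varied less than counting allows, by 1.94% and 1.19% against 8.18% and 9.41%, so the SD understates the error of Fpr2. The adjacent Fpr3 had 8, 1 and 2 counts in Cre- and 0 in each Cre+ library. Fpr-rs7 had 0 in each Cre- library and 4, 0 and 6 counts in the Cre+ replicates. Fpr-rs3, Fpr-rs4 and Fpr-rs6 had no count in any library.

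Counts of Fpr2 and Fpr3 are uncertain, since these genes share 48 exonic bases on the same strand. Their longest transcripts were 87.4% identical over 1131 aligned bases, and the pseudogene Gm5966 held at least 100 bases at 95% identity to Fpr2. Fpr1 shared no exonic bases with another gene, and no other gene held 100 bases at 95% identity to it. Fpr1 and Fpr2 were 70.0% identical over 936 bases. Fpr1 exceeded Fpr2 in FPKM by 17.2-, 18.9- and 17.3-fold in the Cre- and by 21.8-, 19.6- and 21.2-fold in the Cre+ replicates. Thus, Fpr1 was the dominant formyl peptide receptor transcript in every library.

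Formyl peptide receptors are also abundant in neutrophils and monocytes, and Ccr2 in monocytes, so markers of these cells were read beside them. Of the 10 neutrophil markers, 3 were tested and none of these passed, while the other 7 were below the filter. S100a8 was lower in Cre+ without overlap (9.64 ± 1.13 against 7.29 ± 0.488 CPM, log2 fold change -0.40 ± 0.12, SE, adjusted p = 0.072, and 0.021 with the DESeq2 test) and Csf3r was at -0.39 ± 0.19, the same sign as Fpr1 and Fpr2. The remaining tested marker, Mmp8, had the opposite sign (0.06 ± 0.08), and its groups overlapped. No neutrophil marker was at 0 in every library, although S100a9 had at most 3 counts in any. The summed level of the 10 was 42.0 to 47.8 CPM in Cre- and 40.4 to 46.5 CPM in Cre+ libraries, most of it from Mmp8 (29.6 to 35.9 CPM). Of the 8 monocyte markers, 3 were tested, all with a negative log2 fold change, and none passed, although Hp did without Cre+ replicate 1 (-0.45). None of the 8 was at 0 in every library, and their sum was 57.4 to 63.5 CPM in Cre- and 42.6 to 58.6 CPM in Cre+ libraries, most of it from Hp (37.2 to 56.6 CPM). Of the 7 markers of border macrophages, Mrc1 was higher (56.7 ± 1.37 against 78.4 ± 7.90 CPM) and Pf4 lower (5.40 ± 0.422 against 3.12 ± 0.543 CPM) in Cre+. The sum of the 7 was 70.7 to 74.3 CPM in Cre- and 84.8 to 101 CPM in Cre+ libraries, most of it from Mrc1 (55.1 to 86.6 CPM). That sum was higher in Cre+, as was Ptafr, but 2 of the 3 tested markers had a negative log2 fold change. None of these 7 was at 0 in every library, and Cd163, Lyve1, Cbr2 and Folr2 were below the filter. The summed markers of endothelial cells (20.9 to 22.9 and 24.3 to 27.9 CPM, most of it Flt1), neurons (2.97 to 3.60 and 2.38 to 2.54 CPM) and fibroblasts and mural cells (1.84 to 2.83 and 0.972 to 1.23 CPM) also lay apart between Cre- and Cre+, while those of dendritic cells, astrocytes and oligodendrocytes overlapped. The part of these cells in the receptor values was not tested.

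Sums of FPKM over the 42 receptor genes gave the make-up of the chemoattractant receptor pool. The sum was 425 ± 10.6 in Cre- and 503 ± 28.1 in Cre+ libraries (SD, n = 3 each). Ptafr took 9.16%, 9.09% and 9.31% of it in the Cre- replicates and 12.5%, 12.3% and 12.8% in the Cre+ replicates. Its share was thus higher in each Cre+ library. Fpr1 held 5.29% ± 0.134 in Cre- and 3.53% ± 0.0464 in Cre+, and Cxcr4 held 2.72% ± 0.293 and 1.58% ± 0.171. The share of Ccr1 was 17% ± 0.502 in Cre- and 14.2% ± 0.436 in Cre+, although its own level did not differ beyond the spread, because the sum in the denominator was larger. Altogether, the 8 receptors made up 39.4% ± 0.984 of the pool in Cre- and 36.4% ± 0.380 in Cre+ cultures.

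**Figure D3:**
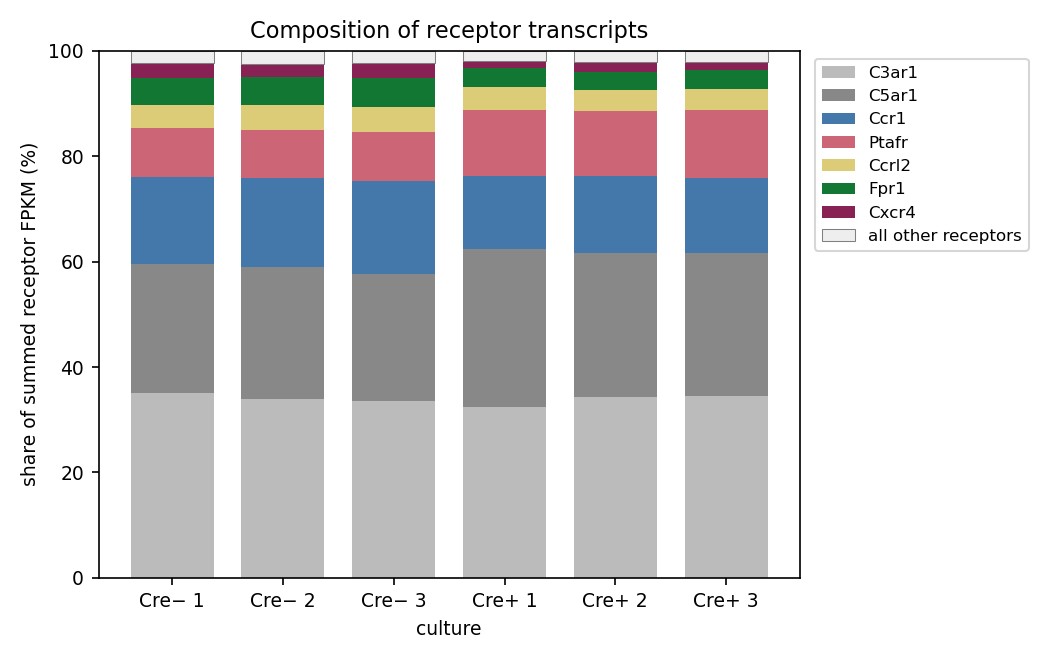
Share of summed FPKM over 42 chemoattractant receptor genes (%) in each of the 6 libraries, stacked by gene, with all genes not named in the legend in white. The Ptafr band widened from 9.19% to 12.5% between the groups and the Fpr1 and Cxcr4 bands narrowed.

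Ratios between receptors within a library do not depend on its scaling. Ptafr exceeded Fpr1 in FPKM by 1.78-, 1.69- and 1.74-fold in the Cre- and by 3.53-, 3.53- and 3.59-fold in the Cre+ replicates. The ratio of Ptafr to Cxcr4 was 3.40 ± 0.343 in Cre- and 7.99 ± 0.907 in Cre+ (SD, n = 3 each). The ratio of Ccr1 to Ptafr went from 1.85 ± 0.0389 to 1.14 ± 0.0455. Ccr1 therefore stayed above Ptafr in each of the 6 libraries, with a smaller margin in Cre+.

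The other 34 receptor genes examined comprised further chemokine, atypical chemokine and formyl peptide receptors and a set of complement and lipid receptors, and 7 of them passed the filter. Of these, 2 passed edgeR's quasi-likelihood test, both higher in Cre+ (against 2.50% of all genes tested). C5ar1, the C5a receptor, was measured at 270, 283 and 263 CPM in Cre- and at 414, 336 and 353 CPM in Cre+ (log2 fold change 0.43 ± 0.06, SE, adjusted p = 7.6e-04), and C3ar1, the C3a receptor, went from 637 ± 18.6 to 739 ± 25.4 CPM (0.21 ± 0.04, adjusted p = 0.0072). Cx3cr1, the fractalkine receptor that marks microglia, did not pass (9.56 ± 2.42 and 12.9 ± 1.07 CPM, 0.44 ± 0.15, adjusted p = 0.11). However, Cx3cr1 passed without Cre- replicate 2 (0.65, adjusted p = 0.011) and without a filter (0.51, adjusted p = 4.3e-04). Cxcr2 (0.20 ± 0.21) and C5ar2 (0.04 ± 0.13) did not pass either. The median log2 fold change of the 7 tested was 0.20, and 27 of the 34 were below the filter, among them Cxcr3 (0.791 ± 0.398 and 0.738 ± 0.121 CPM) and the atypical receptor for Cxcl12, Ackr3, with 2 to 78 counts.

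Ligands of the receptors and enzymes of PAF metabolism were 22 genes, of which 16 were tested, 4 were higher and 2 lower in Cre+, where 2.50% and 2.56% of all genes tested were. Ligands of Ccr1 made up 3 of the 4. Ccl3 was measured at 18.0, 23.2 and 21.9 CPM in the Cre- and at 39.2, 41.4 and 37.8 CPM in the Cre+ replicates (log2 fold change 0.91 ± 0.09, SE, adjusted p = 1.4e-05). Ccl9 went from 47.4 ± 7.61 to 88.9 ± 8.58 CPM (0.91 ± 0.10, adjusted p = 3.0e-05) and Ccl6 from 154 ± 18.0 to 259 ± 30.1 CPM (0.75 ± 0.08, adjusted p = 4.2e-05). These 3 ligand transcripts were thus higher in Cre+ cultures in which Ccr1 itself overlapped with the controls. Ccl5 was at 2.03 ± 0.271 and 2.73 ± 0.401 CPM and did not pass.

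Around the formyl peptide receptors, Anxa1, whose product annexin A1 is a ligand of Fpr1 and Fpr2, was the most abundant ligand transcript. It rose from 2673 ± 142 to 3187 ± 157 CPM (log2 fold change 0.25 ± 0.05, SE, adjusted p = 0.0037), opposite in sign to the values of both receptors. Saa3, a serum amyloid A, did not pass (-0.17 ± 0.08). Ligands of the other receptors did not pass or were not tested. Cxcl12, the ligand of Cxcr4, had 22, 27 and 28 counts in the Cre- and 8, 9 and 21 in the Cre+ replicates and was not tested, and Mif, which also binds Cxcr4, was at 167 ± 4.88 and 158 ± 0.746 CPM (adjusted p = 0.32). Ccl2, the ligand of Ccr2, was at 1.08 ± 0.273 and 1.93 ± 0.332 CPM (0.83 ± 0.24, adjusted p = 0.056), and passed without Cre- replicate 3 (1.06, adjusted p = 0.038), with the DESeq2 test (0.046) and without a filter (0.021).

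On the side of PAF metabolism, both acyltransferases were lower in Cre+, in the cultures with the higher Ptafr level. Lpcat2, which makes PAF in activated myeloid cells, was measured at 32.8, 32.8 and 32.2 CPM in the Cre- and at 22.8, 25.8 and 24.8 CPM in the Cre+ replicates (log2 fold change -0.42 ± 0.07, SE, adjusted p = 0.0026). Lpcat1 went from 21.1 ± 1.27 to 16.3 ± 0.644 CPM (-0.37 ± 0.08, adjusted p = 0.016). The Lpcat1 difference did not pass without Cre- replicate 1, Cre- replicate 3, Cre+ replicate 2 or Cre+ replicate 3 (-0.38 to -0.34, adjusted p of 0.054 to 0.068). The PAF-degrading Pla2g7 (-0.14 ± 0.05, adjusted p = 0.11), the phospholipase Pla2g4a and the 4 other PAF acetylhydrolase genes did not pass.

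**Figure D4:**
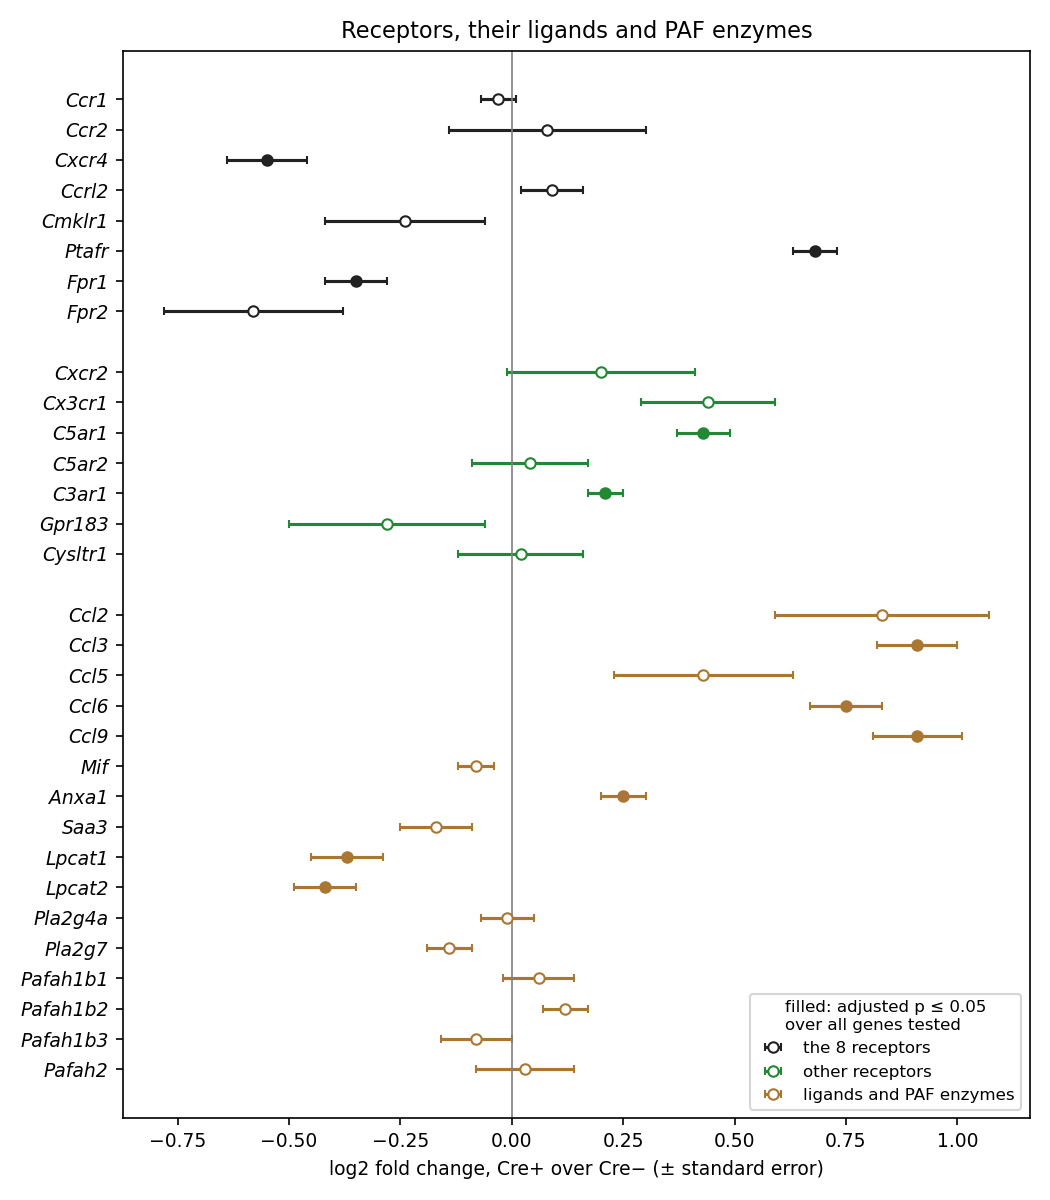
Log2 fold change of Cre+ over Cre- with its standard error for the 8 receptors (black), the other tested receptors (green) and the tested ligands and PAF enzymes (brown), with filled points at an adjusted p of 0.05 or less over all genes tested. Ptafr lies at 0.68 and Cxcr4 at -0.55, with the Ccr1 ligands Ccl3 and Ccl9 at 0.91.

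Genes that act downstream of these receptors were also read. Of 33 genes for G-protein subunits, receptor kinases, arrestins, regulators of G-protein signalling and effectors of migration, 31 were tested, 2 were higher and none was lower in Cre+ (against 2.50% and 2.56% of all genes tested), and their median log2 fold change was -0.02. Dock2, an exchange factor for Rac, went from 111 ± 7.09 to 135 ± 2.97 CPM (log2 fold change 0.28 ± 0.05, SE, adjusted p = 0.0056). Rac2, the Rac of blood cells, went from 469 ± 22.6 to 533 ± 28.8 CPM (0.18 ± 0.05, adjusted p = 0.043). The Rac2 difference did not pass without Cre- replicate 1, Cre- replicate 3, Cre+ replicate 1 or Cre+ replicate 3 (adjusted p of 0.14 to 0.17). Gnb1 (0.10 ± 0.05) and Gng5 (-0.06 ± 0.05), the most abundant G-protein subunits listed, did not pass.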

How the data were processed

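RNA from 6 libraries of cultured mouse microglia (3 Cre-, 3 Cre+) was sequenced by the authors after amplification of cDNA from low input. The deposited counts are whole reads per Ensembl gene, made by the authors on GRCm38 with STAR 2.7.9a and featureCounts 2.0.3 per the submitters' processing notes (the methods name older versions), without a filter. The deposited CPM are the same counts scaled by each library's total, and the deposited FPKM are the CPM divided by gene length. Tests and CPM here were computed from the counts, and CPM were recalculated with TMM-normalized library sizes. FPKM here are the deposited values, which are scaled by library totals without TMM factors. Whether counting used strand is not given in the sources used here. Gene names came from GENCODE M21, which matched 55227 of 55487 identifiers.

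After removal of 356 genes of rRNA biotypes, the 11429 that exceeded 1 CPM in 4 or more libraries entered the quasi-likelihood test of edgeR 4.0.16 (R 4.3.3), TMM factors and Benjamini-Hochberg adjustment, at a threshold of 0.05. The study used limma with quality weights, which was an alternative here. A standard error was obtained by dividing the log2 fold change by the root of its F statistic. The coefficient of variation between libraries of a group was 10.0%, and counting error alone is smaller for all but the lowest genes. Receptor shares are of the FPKM summed over the receptor lists. The receptors and gene lists were chosen with earlier results of these data known. Some list genes are not reported here and were left out of list counts and sums. Named genes were the 8 receptors, Nr1d1, the called genes and the 3 most abundant of each receptor, ligand and signalling list, and the receptor genes adjacent on the chromosome. Ackr3, Rarres2, Cxcl12, Ccl2, Ccl5, Saa3, Pla2g4a, Pla2g7 and the single marker genes are not covered by it and were picked with their values in view. Results were recomputed with library totals in place of TMM, DESeq2's size factors, the DESeq2 1.42.0 test, limma 3.58.1 voom with and without quality weights, 2 other filters, ribosomal genes kept, the replicate number as a block, and each library left out in turn. The pipeline was tested on simulated data. Similar transcripts were searched with blastn 2.17.0 (at least 100 bases at 95% identity), and promoter windows came from RefSeq. Proteins were not used here. Summaries used pandas 2.3.3 and numpy 2.4.6 in python 3.11.15, and figures matplotlib 3.10.9.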

Additional observations from a re-analysis of the deposited data

How the results depend on the processing

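The 25 named genes that were tested gave 375 values over 15 alternatives, of which 350 kept their direction and side of the threshold, 13 fell below it, 4 rose past it and 8 changed sign. The count of called receptors among the 8, selected on these same counts, was 3 and fell to 2 without replicate 2 of either group. Beside it, 5.07% of all genes tested were called in the main fit. The levels of the 8 had no independent alternative, since FPKM were the deposited values throughout. Leaving out 1 of 3 libraries cannot move a mean beyond its SD, so nothing is read from the levels keeping within it. Over all genes, 579 were called, against 886 with the DESeq2 test, 1528 without a filter and 317 to 448 with each library left out, from 5 libraries. Without a filter, the median log2 fold change of all genes was -0.20, so that log2 fold changes there are read against it, 4 of the other receptors and 5 signalling genes were called, and Ccr1 (0.05) and Gng5 (0.02) changed sign. Ccr1 was 0.02 with edgeR's filterByExpr. With DESeq2's size factors, 1 signalling gene was called, and leaving out each library gave 1 to 2. Leaving out libraries moved Ccr2 from -0.07 to 0.20, Ccrl2 from -0.004 to 0.16 and C5ar2 from -0.06 to 0.21. Where no construction of the alternative is named, the cause was not tested.

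The replicate numbers did not pair the libraries, with correlations of deviations of 0.0144, -0.0205 and -0.0445 for equal numbers. With the replicate block, 430 genes and 1 signalling gene were called, Rac2 having an adjusted p of 0.091. Depth limits Ccr2, Fpr2 and Cmklr1, which had 96 to 303 counts.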
